A study of Mus musculus with 10 samples.

Results

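The genes described here are 8 genes of fibroblast growth factor (FGF) signaling in mouse embryonic stem cells (ESCs). They are the receptors Fgfr2 and Fgfr1, the feedback inhibitors Spry2, Spry4, Spred1, Dusp6 and Dusp4, and the transcription factor gene Etv4. All 8 were found by name among the 24386 genes counted in every sample. They were selected on the total nascent count of Fgfr2, which was lower at 24 h than at 12 h of doxycycline (DOX), so that difference is a description throughout and carries no test. The rule of choice named neither the allelic share nor the levels of the other 7 genes. The members were, however, chosen with earlier results of these data known.

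Nascent RNA was profiled by TT-seq, in which RNA made during a short pulse of 4-thiouridine (4sU) is purified and sequenced, so a count reflects transcription during the pulse rather than the pool of stable RNA. The cells were TX1072, a single female hybrid ESC line of genotype WT with 1 Cast and 1 C57BL/6 (B6) chromosome set, in which a DOX-inducible promoter drives endogenous Xist on the B6 X chromosome. There were 5 groups of 2 replicates each, with DOX at 1 µg/ml for 0, 4, 8, 12 and 24 h and a 4sU pulse of 5 min. Every group grew on gelatin with serum, LIF and the inhibitors PD0325901 and CHIR99021. DOX hours and time in culture rose together, and all cells carried inducible Xist, so in total counts a response to the drug, to Xist RNA or to culture time cannot be told apart.

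FGF receptors are tyrosine kinases that pass the signal of secreted FGF ligands through adaptor proteins and RAS to the kinases RAF, MEK and ERK. Active ERK induces genes that damp the pathway. Sprouty (Spry) and Spred proteins act on RAS and RAF, DUSP6 and DUSP4 are phosphatases that remove phosphate from ERK, and ETV4 is an ETS transcription factor made in response to FGF. In the early mouse embryo Fgfr1 is used in the epiblast and in primitive endoderm, and Fgfr2 is found in primitive endoderm and trophectoderm. FGF4 made by naive ESCs drives their exit from self-renewal. PD0325901 blocks MEK, so ERK signaling was inhibited in every group.

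Total counts per library ran from 18809046 to 22274929, and 49.2% to 52.8% of these counts were assigned to an allele. Values below are counts scaled to a library total of 1000000 (CPM), or CPM per kb of gene span where genes are compared with each other. A gene is called changed where edgeR's quasi-likelihood test gave an adjusted p under 0.05 over all 14525 genes tested. Of 12 naive ESC markers, 11 passed the low-count filter and Sox2 was listed at 0 in every sample. The reason for this 0 was not tested, and it is not read as a lack of Sox2 transcription. The summed level of the list was 177 to 192 CPM per kb and overlapped between 0 h and 24 h. Summed levels were 13.7 to 16.4 for formative or primed epiblast markers, 3.97 to 4.50 for primitive endoderm, 1.81 to 3.14 for trophectoderm, 1.10 to 1.52 for mesoderm and endoderm, and 3.70 to 4.79 for fibroblast markers. Vim alone had a mean of 3.61 CPM per kb in the fibroblast list, and Lama1 had 2.65 in the primitive endoderm list. Under 0.1 CPM per kb were 6 of the 9 fibroblast markers and 7 of the 11 primitive endoderm markers. In bulk samples fewer cells of a type and less RNA per cell cannot be told apart. The study speaks of biological duplicates in its time course figures, but the sample labels do not say what separates replicates 1 and 2, and p-values measure the spread between these samples.

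Fgfr2 lies on the minus strand of chromosome 7 (mm10) from 130162451 to 130266808. Its counted span of 104 kb is 9.60% exonic by GENCODE, so most of the counted stretch is intronic. GENCODE holds a longer model of Fgfr2 that reaches to 133123350, beyond the span counted. The 250 bases before the start of the RefSeq model (GRCm38.p6, gene strand, chr7:130266809-130267058) are shown first, because Fgfr2 is the gene that set the choice. The same stretch of Spry2 (chr14:105896820-105897069, minus strand) and of Dusp6 (chr10:99262981-99263230, plus strand) is shown beside it. These genes were taken because their 24 h samples lay above both of their 12 h samples, a difference that carries no test. A link between these sequences and a direction of change was not tested.
Fgfr2: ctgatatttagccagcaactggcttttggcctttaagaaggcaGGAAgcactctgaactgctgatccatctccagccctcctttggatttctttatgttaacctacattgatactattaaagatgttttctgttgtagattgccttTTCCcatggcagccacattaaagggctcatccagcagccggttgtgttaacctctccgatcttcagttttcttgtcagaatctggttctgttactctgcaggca
Spry2: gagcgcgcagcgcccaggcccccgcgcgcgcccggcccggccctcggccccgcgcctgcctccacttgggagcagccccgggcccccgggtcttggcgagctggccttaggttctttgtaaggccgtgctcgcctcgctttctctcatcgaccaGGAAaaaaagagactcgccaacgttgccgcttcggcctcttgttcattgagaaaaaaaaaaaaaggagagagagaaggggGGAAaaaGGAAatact
Dusp6: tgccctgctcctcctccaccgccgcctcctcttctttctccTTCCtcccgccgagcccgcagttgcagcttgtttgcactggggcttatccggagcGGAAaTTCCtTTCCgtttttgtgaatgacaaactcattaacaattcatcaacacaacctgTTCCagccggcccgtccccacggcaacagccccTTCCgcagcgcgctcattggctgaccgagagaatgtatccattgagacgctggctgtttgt
Capitals mark GGAA on either strand, the short core that ETS factors such as ETV4 share, which was added to the search after the windows had been seen. It occurs 2 times in the window of Fgfr2, 3 times in that of Spry2 and 6 times in that of Dusp6, and it is in 93.4% of 32851 RefSeq promoter windows of this length. The longer CCGGAA, which contains this core, is in 12.0% of windows, and TGANTCA, bound by AP-1, in 6.75%. Searched on both strands, neither is in the windows of these 3 genes or of Spred1, which says only that these letters are not there. GC content was 44.0% for Fgfr2, 62.4% for Spry2, 56.4% for Dusp6 and 70.8% for Spred1, with a median of 52.4% over all windows. RefSeq windows were at hand for these 4 genes, and Fgfr1, Spry4, Dusp4 and Etv4 are named only.

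The nascent RNA of Fgfr2 ran from 38.6 to 48.7 CPM up to 12 h of DOX and was lower at 24 h. All 8 h and 12 h samples lay below both 0 h samples, with means of 0.893 and 0.912 times the 0 h mean. The total count was 48.0 and 44.6 CPM in the 0 h replicates, 46.0 and 48.7 CPM at 4 h, 44.1 and 38.6 CPM at 8 h, 40.3 and 44.2 CPM at 12 h, and 17.4 and 23.9 CPM at 24 h. Both 24 h samples lay below all 8 others, and the highest of the 24 h samples was 532 counts against a lowest of 759 counts elsewhere. The mean CPM at 24 h was 0.489 times that at 12 h and 0.446 times that at 0 h. On the log2 scale the difference was -1.06 between 24 h and 12 h and -1.15 between 24 h and 0 h, given without a test because these libraries chose the gene. At the earlier times, which the rule of choice did not name, Fgfr2 was not called changed. Its log2 change was 0.05 after 4 h (SE 0.12, edgeR adjusted p 1.00). After 8 h it was -0.13 (SE 0.12), with an edgeR adjusted p of 0.996. Over all genes tested, edgeR called 0.00688% between 12 h and 24 h, or 1 gene. That gene was Fgfr2 itself, so this share is not a background for it. DESeq2 called 22 genes there and edgeR with the replicate block 215. Nothing is read from these counts for Fgfr2, because the choice rested on this comparison.

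**Figure D1:**
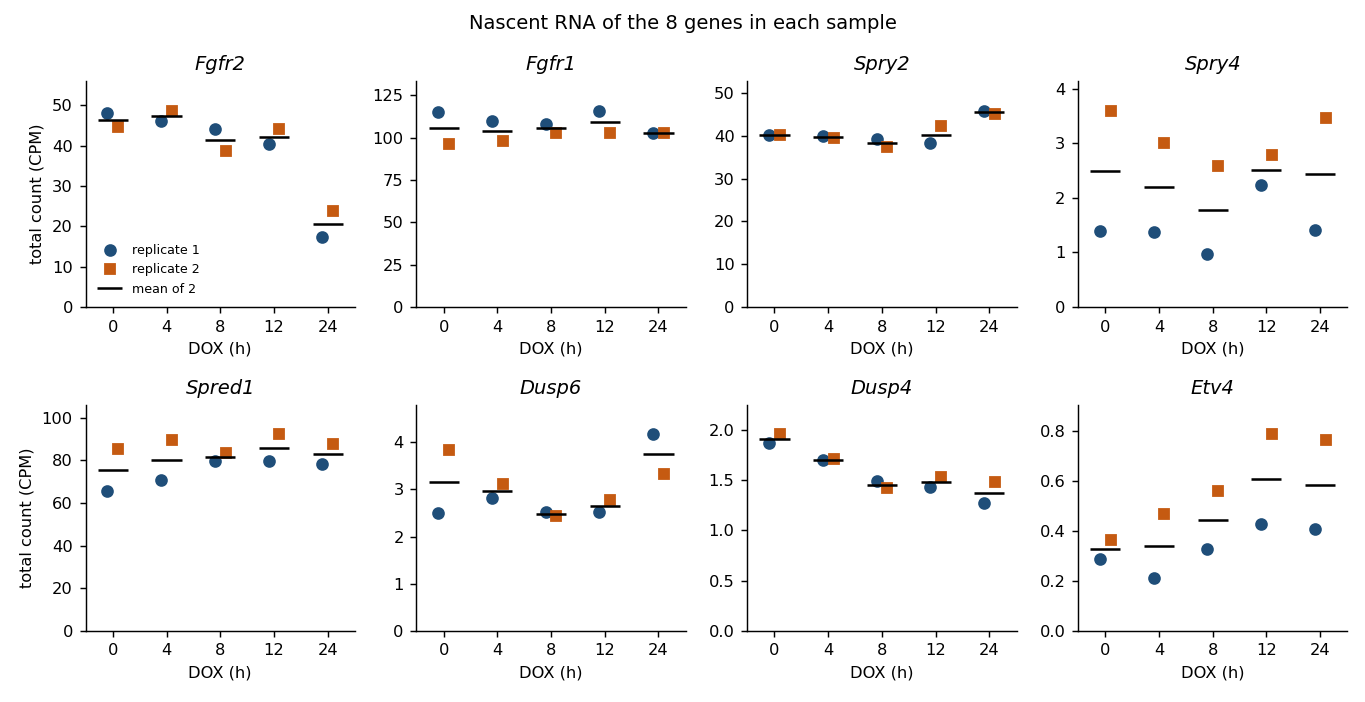
Total nascent count of each gene in each sample. Each panel is a gene, the x axis gives hours of DOX, the y axis gives CPM from 0 upward on a scale of its own, circles and squares are replicates 1 and 2, and bars are means of 2. Fgfr2 at 24 h (17.4 and 23.9 CPM) sits below all other Fgfr2 samples, and in Spry4, Spred1 and Etv4 replicate 2 sits above replicate 1 at every time.

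The lower Fgfr2 count at 24 h was shared by both alleles. The B6 allele gave 165 and 203 reads before DOX, 173 and 195 reads after 12 h and 65 and 106 reads after 24 h. The Cast allele gave 417 and 453 reads before DOX, 387 and 418 reads after 12 h and 158 and 242 reads after 24 h. Scaled to all reads of the same allele, the 24 h mean was 0.465 times the 12 h mean on B6 and 0.497 times on Cast. The share of B6 among allelic reads, which the study calls the d-score, stood at 0.284 and 0.309 before DOX. It was 0.286 and 0.329 after 4 h and 0.30 and 0.304 after 8 h. It then stood at 0.309 and 0.318 at 12 h and at 0.291 and 0.305 after 24 h. The times overlapped in this share, except that both 12 h values lay above those of 8 h and 24 h. The B6 to Cast ratio at 24 h differed from that at 0 h by 0.02 on the log2 scale (95% interval -0.34 to 0.37, edgeR adjusted p 0.996). A fold between 0.793 and 1.29 lies within this interval, and a difference of that size would not have been detectable here. By comparison, the median d-score of X-linked genes was 0.493 and 0.500 in the 0 h samples and 0.282 and 0.283 in the 24 h samples, while the autosomal median stayed between 0.521 and 0.524.

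**Figure D2:**
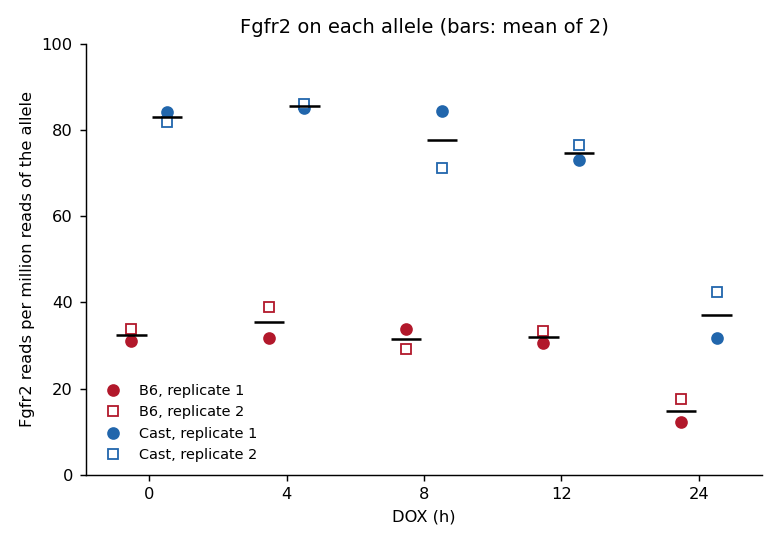
Fgfr2 reads from each allele. The x axis gives hours of DOX and the y axis gives Fgfr2 reads scaled to 1000000 reads of the same allele, with B6 in red, Cast in blue, filled circles for replicate 1, open squares for replicate 2 and bars for means of 2. Cast means are 83.0 at 0 h and 37.2 at 24 h, B6 means are 32.4 and 14.9, and Cast lies above B6 in every sample.

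Fgfr2 was chosen for its fall between 12 h and 24 h, so smaller differences in the genes around it follow from that choice. They are given as a description only. Of 14 genes within 1 Mb on either side, 7 passed the low-count filter, and their log2 differences between 24 h and 12 h ran from -0.20 for Plpp4 to 0.13 for Nsmce4a. The nearest of these, Ate1, which encodes an arginyl transferase and lies 124.7 kb away, had a log2 difference of -0.09.

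For Fgfr1, the other receptor among the members, the 12 h and 24 h samples overlapped. Fgfr1 (chromosome 8, 25518759 to 25575718, plus strand) had 115 and 96.2 CPM at 0 h, 110 and 98.3 CPM at 4 h, 108 and 103 CPM at 8 h, 116 and 103 CPM at 12 h, and 103 and 103 CPM at 24 h. Each time overlapped with 0 h, and replicate 1 exceeded replicate 2 at every time but 24 h. The log2 change at 24 h was -0.02 (95% interval -0.21 to 0.17, edgeR adjusted p 0.982), which leaves room for a fold between 0.867 and 1.13. Fgfr1 was the most transcribed of the FGF receptors per length at 1.86 ± 0.115 CPM per kb (SD, n = 10). The decoy receptor gene Fgfrl1 had 0.847 ± 0.122, Fgfr2 had 0.379 ± 0.101, the co-receptor gene Klb had 0.305 ± 0.0229, Fgfr3 had 0.0932 ± 0.0210 and Fgfr4 had 0.0656 ± 0.0110 CPM per kb. Kl, which encodes the other Klotho co-receptor, had at most 5 counts in a sample. Fgfr1 exceeded Fgfr2 in every sample, by a mean of 1.85 against 0.444 CPM per kb at 0 h and of 1.81 against 0.198 CPM per kb at 24 h.

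Among the inhibitors that act upstream of ERK, Spry2 was the most transcribed. Spry2 (chromosome 14, 105891947 to 105896819, minus strand) had 40.1 and 40.2 CPM at 0 h, 40.0 and 39.4 CPM at 4 h, 39.3 and 37.3 CPM at 8 h, 38.3 and 42.2 CPM at 12 h, and 45.9 and 45.1 CPM at 24 h. Both 24 h samples were above the other 8, and the mean at 24 h was 1.13 times that at 0 h. The log2 change of 0.19 (SE 0.08, 95% interval 0.02 to 0.37) had an unadjusted p of 0.0351 and an edgeR adjusted p of 0.426, so it did not pass the test. With the replicate number as a block the adjusted p was 0.183.

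Spred1 (chromosome 2, 117121071 to 117182277, plus strand) had 65.6 and 85.2 CPM at 0 h, 70.7 and 89.3 CPM at 4 h, 79.8 and 83.3 CPM at 8 h, 79.6 and 92.2 CPM at 12 h, and 78.3 and 87.7 CPM at 24 h. Replicate 2 lay above replicate 1 at all 5 times, by 1.04 to 1.30 times. The log2 change at 12 h was 0.23 (SE 0.14, edgeR adjusted p 0.527), and with the block it was 0.24 (SE 0.08, edgeR adjusted p 0.0606).

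Spry4 (chromosome 18, 38586265 to 38601268, minus strand) was near the lower end of the range, with 21 to 79 counts in a sample. It had 1.39 and 3.60 CPM at 0 h, 1.38 and 3.01 CPM at 4 h, 0.98 and 2.59 CPM at 8 h, 2.24 and 2.78 CPM at 12 h, and 1.42 and 3.46 CPM at 24 h. Replicate 2 exceeded replicate 1 at all 5 times, by a median of 2.43 times. At 0, 4, 8 and 24 h this gap was wider than the largest difference between the means of any pair of times. The log2 change at 24 h was -0.01 with a 95% interval of -1.07 to 1.04. With the replicate block, which takes out the gap between replicates, it was -0.02 with a narrower 95% interval of -0.52 to 0.48, and it was not called in either fit. Of all genes tested, 9.12% had replicate 1 below replicate 2 at every time, as Spry4, Spred1 and Etv4 did, and 12.3% had the opposite order.

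The ERK phosphatase genes had few counts. Dusp6 (chromosome 10, 99263231 to 99267489, plus strand), whose protein is a phosphatase of cytoplasmic ERK, had 2.49 and 3.83 CPM at 0 h, 2.82 and 3.11 CPM at 4 h, 2.52 and 2.44 CPM at 8 h, 2.52 and 2.78 CPM at 12 h, and 4.17 and 3.32 CPM at 24 h. Both 24 h samples were above the 12 h samples, and they overlapped with 0 h. From 0 h to 24 h its log2 change was 0.25 (95% interval -0.24 to 0.73, edgeR adjusted p 0.814).

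Dusp4 (chromosome 8, 34807610 to 34819894, plus strand), whose protein is a nuclear phosphatase, had 1.87 and 1.96 CPM at 0 h, 1.70 and 1.71 CPM at 4 h, 1.49 and 1.42 CPM at 8 h, 1.43 and 1.53 CPM at 12 h, and 1.27 and 1.48 CPM at 24 h. All later samples lay below both 0 h samples, and the 8, 12 and 24 h samples overlapped. These values rest on 25 to 43 counts a sample. The log2 change at 24 h was -0.46 (95% interval -0.99 to 0.07, edgeR adjusted p 0.583), which did not pass the test.

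Etv4 (chromosome 11, 101769748 to 101785310, minus strand) was the least transcribed of the 8 genes, with 4 to 17 counts a sample. It had 0.29 and 0.36 CPM at 0 h, 0.21 and 0.47 CPM at 4 h, 0.33 and 0.56 CPM at 8 h, 0.43 and 0.79 CPM at 12 h, and 0.41 and 0.76 CPM at 24 h. The 12 h and 24 h samples lay above both 0 h samples. The log2 change at 24 h was 0.86, with a 95% interval of -0.28 to 2.00 and an edgeR adjusted p of 0.665. Its relatives were transcribed more, with Etv5 at 12.5 ± 0.831 and Etv1 at 0.482 ± 0.0373 CPM per kb (SD, n = 10) against 0.0296 ± 0.0123 CPM per kb for Etv4.

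**Figure D3:**
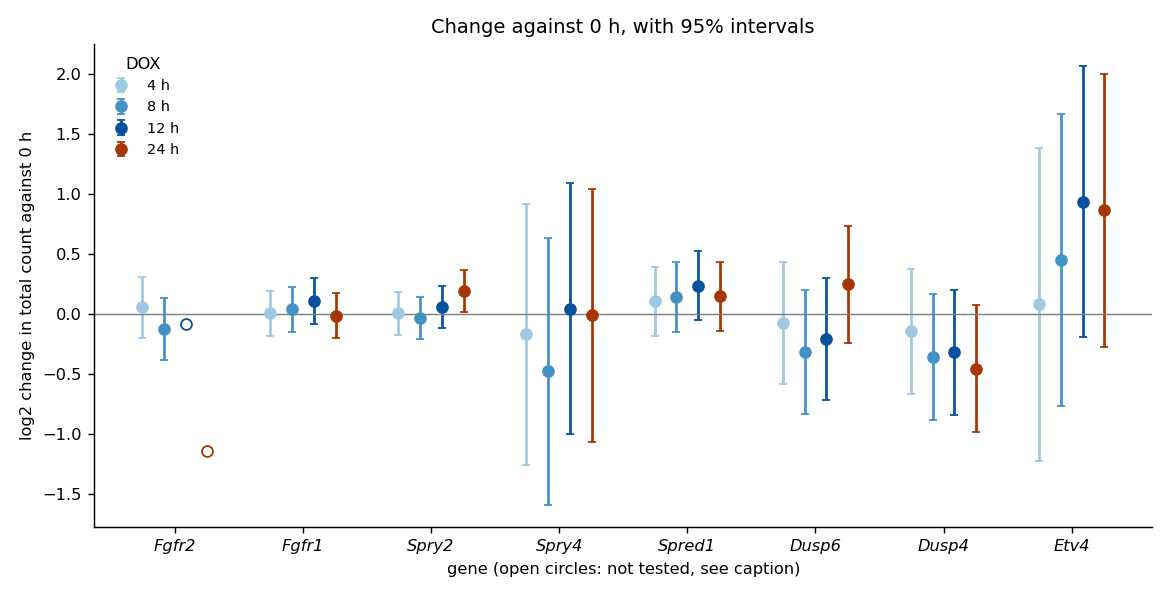
Change in total count against 0 h for each gene at 4, 8, 12 and 24 h. The y axis is the log2 change from the edgeR fit, bars are 95% intervals, and open circles without bars mark Fgfr2 at 12 and 24 h, which are described without a test because these libraries chose it. Fgfr2 at 24 h lies at -1.15, and the intervals drawn span 0 at every time except Spry2 at 24 h (0.02 to 0.37).

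At no time was a member that could be tested called changed in total count. At 4 h and at 8 h none of 8 were called, against 0.0138% and 0.193% of all genes tested. At 12 h and at 24 h none of the 7 members other than Fgfr2 were called, against 0.950% and 1.85% of all genes. Among autosomal genes, as all 8 members are, the shares called were 0.00713%, 0%, 0.171% and 0.549% at 4, 8, 12 and 24 h. At an unadjusted p under 0.05 in the fit without the block there was 1, Spry2 at 24 h, where 8.07% of autosomal genes tested were. Limma voom called 0 as well, and so did DESeq2, which gave no adjusted p to Spry4, Dusp6, Dusp4 and Etv4 at 8 and 12 h or to Etv4 at 24 h. With the replicate block, which raised the shares of all genes called to 0.0344%, 0.744%, 4.94% and 5.32% at 4, 8, 12 and 24 h, the count of members called was again 0 at each time. The smallest adjusted p at 4 to 24 h with the block belonged to Spred1 at 12 h, given above.

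Per length, the 8 genes differed widely in level. They also differed in the exonic part of the counted span, from 9.60% for Fgfr2 to 42.83% for Spry2 and 73.54% for Dusp6. How far this bears on their order was not tested. In order of the mean over 10 samples, Spry2 had 8.37 ± 0.572 CPM per kb (SD, n = 10), Fgfr1 had 1.86 ± 0.115, Spred1 had 1.33 ± 0.135, Dusp6 had 0.705 ± 0.142, Fgfr2 had 0.379 ± 0.101, Spry4 had 0.152 ± 0.0630, Dusp4 had 0.129 ± 0.0176 and Etv4 had 0.0296 ± 0.0123 CPM per kb. Spry2 stood at the 95.2 percentile and Etv4 at the 8.2 percentile of the genes tested. Neighbours in this order did not overlap in any sample down to Fgfr2. Fgfr2 (0.167 to 0.466 CPM per kb) overlapped with Spry4 (0.0654 to 0.240 CPM per kb) through its 24 h samples, and Spry4 overlapped with Dusp4 (0.104 to 0.160 CPM per kb).

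The d-scores of Fgfr2 and Spry2 lay on opposite sides of those of Fgfr1 and Spred1 in every sample. Pooled over the 10 samples, the B6 share was 0.305 for Fgfr2 (95% Wilson interval 0.292 to 0.317, 5318 reads) and 0.282 for Dusp4 (0.226 to 0.346, 213 reads), both toward Cast. It was 0.639 for Spry2 (0.624 to 0.654, 4083 reads) and 0.538 for Spred1 (0.528 to 0.548, 9829 reads), both toward B6. Fgfr1 had 0.522 (0.513 to 0.530, 13477 reads), Spry4 0.531 (0.470 to 0.591, 256 reads), Dusp6 0.427 (0.355 to 0.502, 171 reads) and Etv4 0.537 (0.406 to 0.663, 54 reads). In single samples the Fgfr2 share ranged from 0.284 to 0.329 and the Spry2 share from 0.619 to 0.670, and these ranges do not overlap with each other or with those of Fgfr1 (0.502 to 0.547) and Spred1 (0.522 to 0.557). The shares of Dusp4 (0.077 to 0.526) and Dusp6 (0.286 to 0.588) rest on 10 to 29 allelic reads a sample. Counting error is all that these intervals cover, since reads without molecular identifiers need not come from separate molecules.

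Set against all allelic reads, the B6 to Cast ratio was lower for Fgfr2 by a log2 difference of -1.29 (SE 0.04, edgeR adjusted p 7.5e-17) and for Dusp4 by -1.43 (SE 0.24, edgeR adjusted p 2.61e-05). It was higher for Spry2 by 0.72 (SE 0.04, edgeR adjusted p 7.69e-12) and for Spred1 by 0.12 (SE 0.03, edgeR adjusted p 0.00165). Dusp6 had a difference of -0.52 (SE 0.22, edgeR adjusted p 0.0452), which was no longer called with the replicate block (edgeR adjusted p 0.0554) and rests on few reads. Fgfr1 at 0.02 and Spry4 at 0.07 were not called, and Etv4 was not tested because it had under 10 allelic reads in 9 of the samples. The 5 of 7 members called compare with 70.0% of the 11906 genes tested, and the 4 of 7 called with the block compare with 69.8%. Both shares are near those of genes at large.

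**Figure D4:**
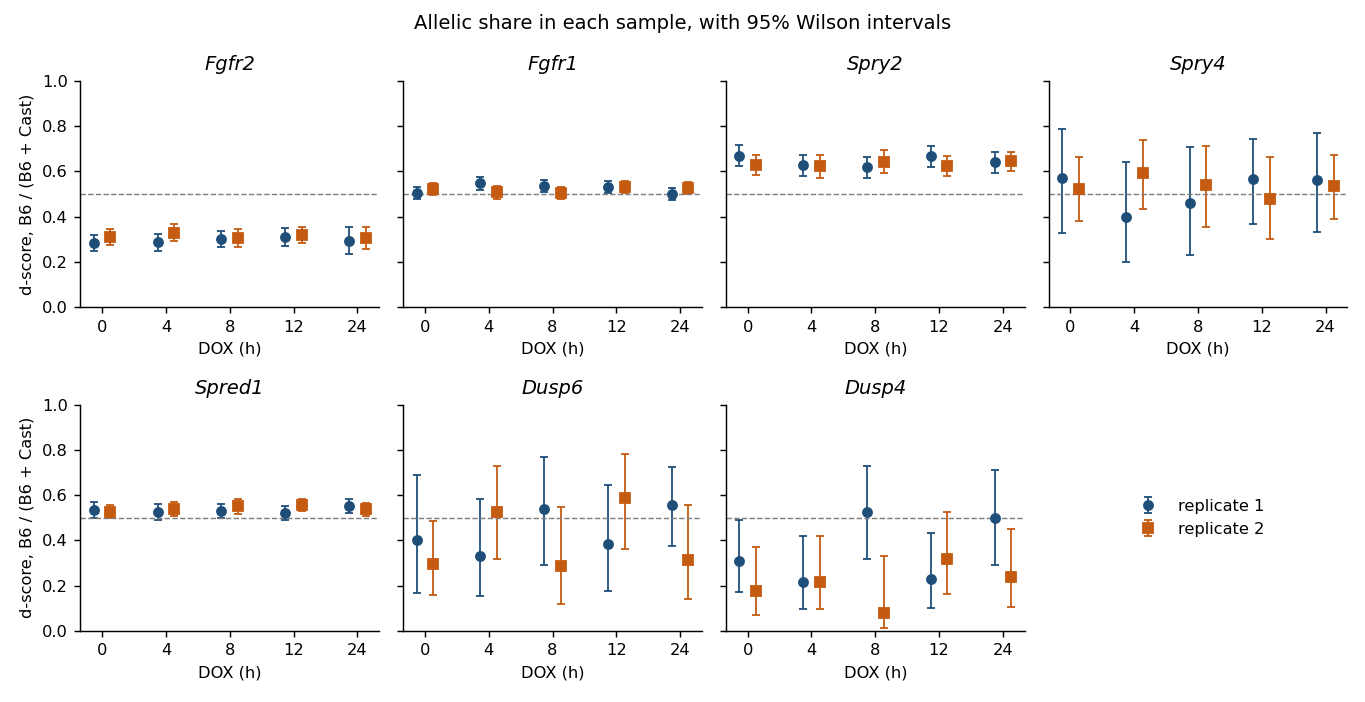
Share of B6 reads among allelic reads in each sample for the 7 genes whose allelic reads reached 10 in each sample. The x axis gives hours of DOX, the y axis gives the d-score, circles and squares are replicates 1 and 2, bars are 95% Wilson intervals and the dashed line marks 0.5. Fgfr2 stays between 0.284 and 0.329 and Spry2 between 0.619 and 0.670, while Dusp6, Dusp4 and Spry4 have wide intervals.

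No member was called changed in its allelic ratio after DOX. Against 0 h, 0 of 7 were called at 4, 8, 12 and 24 h by edgeR and 0 by limma voom. At an unadjusted p under 0.05 there were 0, against 4.13%, 3.84%, 5.15% and 5.68% of autosomal genes tested. The shares of all genes called at these times were 0.361%, 1.66%, 2.15% and 2.64%, and most of those genes were X-linked, while all 8 members are autosomal. At 24 h the 95% interval of the log2 change was -0.17 to 0.18 for Fgfr1, -0.34 to 0.29 for Spry2 and -0.12 to 0.29 for Spred1. It was wider for Spry4 (-1.10 to 1.18), Dusp6 (-0.59 to 2.24) and Dusp4 (-0.69 to 2.19), where changes of 2-fold were not detectable.

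The wider FGF to ERK pathway was read from lists of 92 further genes, of which 75 passed the low-count filter. In total counts edgeR called 0 of the 75 at 4, 8 and 12 h. At an unadjusted p under 0.05 there were 1, 6 and 15 of the 75, against 1.91%, 2.67% and 9.62% of autosomal genes tested. At 24 h there were 11 of the 75, against 8.07%. The counts at 8, 12 and 24 h are above these shares. Of the 75 genes 5 are X-linked, which the counts include and the autosomal shares do not. DESeq2 called 0 at 4 and 8 h and 2 at 12 h, which were Epha4 and Fgf13. At 24 h 3 were lower and 0 higher, where 224 of all genes tested were lower and 45 higher. Of these 269 genes called at 24 h, 77 were autosomal. The median log2 change at 24 h was -0.03 over the 75 genes and 0.01 over all genes tested. DESeq2 called Fgf13 and Rps6ka3 lower at 24 h. With the replicate block 3 were higher and 7 lower at 12 h, where 4.94% of all genes were called, and 4 were higher and 6 lower at 24 h, where 5.32% were. These were named after their values were seen. At 12 h Dusp14, Epha4 and Fgf10 were higher, and Dusp8, Dusp9, Fgf13, Fgfrl1, Ier2, Jun and Rps6ka6 were lower. At 24 h Dusp14, Fgf10, Flrt3 and Nras were higher, and Ccnd1, Dusp8, Dusp9, Fgf13, Rps6ka3 and Rps6ka6 were lower.

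The 3 genes lower at 24 h were Fgf13, Rps6ka6 and Dusp8. Fgf13, an X-linked gene of the intracellular FGF-homologous factors, had 77.2 and 74.6 CPM at 0 h and 47.9 and 44.2 CPM at 24 h, with a log2 change of -0.71 (SE 0.08) and an edgeR adjusted p of 0.00015. Rps6ka6, an X-linked gene for an ERK-activated ribosomal S6 kinase, had a log2 change of -0.59 (SE 0.14) and an edgeR adjusted p of 0.0489. Leaving out 24 h replicate 1, 24 h replicate 2, 0 h replicate 2 or either 8 h replicate ended that call, as did DESeq2 and limma voom, with log2 changes of -0.82 to -0.31 over all alternatives. Dusp8, an autosomal gene for a phosphatase of stress-activated kinases, had 55 and 32 counts at 0 h and 15 and 11 at 24 h, with a log2 change of -1.69 (SE 0.37) and an edgeR adjusted p of 0.0242. DESeq2 did not call it, nor did edgeR without 0 h replicate 1 or without either 24 h replicate, with log2 changes of -2.05 to -1.23 over all alternatives.

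In the allelic ratio edgeR called 0 of 59 further pathway genes at 4 h. There 4 had an unadjusted p under 0.05, against 4.13% of autosomal genes tested. At 8 h and at 12 h 3 were lower, and 4 were lower at 24 h. Of all genes tested 0.361%, 1.66%, 2.15% and 2.64% were called at 4, 8, 12 and 24 h. Of the 59 genes 5 are X-linked, and all genes called are among these 5. The median d-score of X-linked genes at large also fell, from 0.500 and 0.493 at 0 h to 0.282 and 0.283 at 24 h. The calls are therefore not read as particular to the pathway. The genes called were Fgf13, Rps6ka6 and Rps6ka3, both of these kinases of the same family, and at 24 h also Araf, a RAF kinase. With the replicate block Araf was also lower at 8 h (log2 -0.53, edgeR adjusted p 0.0335), where 1.80% of all genes were called. At 24 h the block added the autosomal Epha4, which was higher by 0.11 on the log2 scale (edgeR adjusted p 0.0317), where 2.88% of all genes were called. Both were named after their values were seen. The mean d-score of Fgf13 was 0.568 ± 0.011 at 0 h and 0.312 ± 0.035 at 24 h (SD, n = 2), and that of Rps6ka6 was 0.560 ± 0.015 and 0.302 ± 0.006. Among the ligands Fgf4, the FGF that naive ESCs make, had the highest level per length at 22.7 ± 2.05 CPM per kb (SD, n = 10), followed by Fgf10 at 0.649 ± 0.131 and Fgf17 at 0.598 ± 0.115. The log2 change of Fgf4 at 24 h was 0.15 and it was not called.

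**Figure D5:**
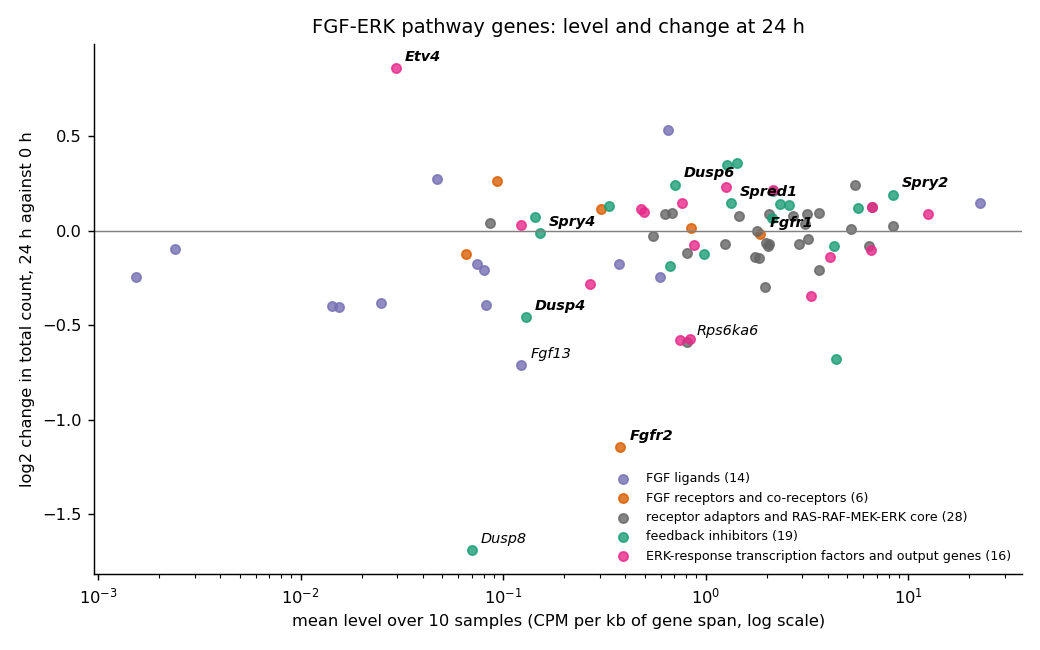
Level and change of the 83 pathway genes that passed the low-count filter, members included. The x axis is the mean level in CPM per kb of gene span on a log scale, the y axis is the log2 change in total count at 24 h against 0 h, colors give the list with its number of genes, members are in bold, and the 3 other labelled genes are those called at 24 h. Fgfr2 (-1.15) and Dusp8 (-1.69) lie lowest, and most genes lie near 0.

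The genes whose log2 CPM followed Fgfr2 most closely over the 10 samples were Rragd (Pearson's r 0.970), Muc19 (r 0.964), Khdrbs1 (r 0.948), Creb5 (r 0.943) and Cacna1e (r 0.942). These are the highest of 14524 values, the samples share their time points, and both 24 h samples weigh heavily in each. Their log2 differences between 24 h and 0 h ran from -1.85 for Muc19, a mucin gene with at most 1.78 CPM in a sample, and -1.20 for Cacna1e, which encodes a calcium channel, to -0.32 for Rragd, which encodes a RAG GTPase, and -0.23 for Khdrbs1. Among the members r with Fgfr2 was 0.716 for Dusp4, 0.199 for Fgfr1, 0.035 for Spry4, -0.037 for Spred1, -0.272 for Etv4, -0.610 for Dusp6 and -0.789 for Spry2.

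Of the markers of other cell states, 2 were called at 24 h against 0 h. There 1.85% of all genes tested and 0.549% of autosomal genes were called. They were 1 of 9 formative or primed markers tested and 1 of 5 trophectoderm markers tested. No marker in the primitive endoderm, mesoderm and endoderm, or fibroblast lists was called. Otx2 in the formative list was lower at 24 h than at 0 h by a log2 change of -0.84 (SE 0.17), with an edgeR adjusted p of 0.0159. For Tfap2c in the trophectoderm list it was -0.72 (SE 0.13), with an edgeR adjusted p of 0.00835. The Otx2 call was lost with DESeq2 and without any 1 of the 0 h or 24 h replicates, and the Tfap2c call without 0 h replicate 2 or 24 h replicate 1. Over all alternatives the log2 change ran from -0.86 to -0.84 for Otx2 and from -0.85 to -0.61 for Tfap2c. The summed level of the 8 trophectoderm markers was 2.60 to 3.14 CPM per kb before DOX and 1.81 to 2.07 after 24 h. Tfap2c was the largest part of this sum, with a mean of 1.45 CPM per kb over the 10 samples, followed by Cdx2 at 0.487. Hand1 and Elf5 had at most 5 counts a sample. The summed level of the 11 primitive endoderm markers was 3.97 to 4.32 CPM per kb at 0 h and 4.30 to 4.50 at 24 h, and 7 of them were under 0.1 CPM per kb. The part of these marker levels in the Fgfr2 difference was not tested.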

How the data were processed

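TT-seq libraries of 10 samples were analysed, 2 replicates at each of 5 DOX times, grouped by the sample labels. By the study's methods the authors trimmed reads with Cutadapt 1.16, aligned them with STAR 2.3.0 to mm10 with strain-specific positions masked, kept unique properly paired alignments, split alleles with SNPSplit 0.3.2 and counted strand-specifically with featureCounts 1.5.1 over the longest refFlat span of a gene, introns included. The submitters' processing notes name TopHat2 2.1.0 in place of STAR. The deposited total, B6 and Cast counts are raw, and the deposited fraction (d-score) is B6 over B6 plus Cast counts. Spike-in RNA was added but no scaling to it is stated, so a change common to all genes would not be seen. Deposited starts were read as 0-based and printed 1-based.

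Total counts were fitted with edgeR 4.0.16 (R 4.3.3, filterByExpr, TMM, quasi-likelihood, time as a factor, all 10 samples). Allelic counts were fitted on 20 columns with sample intercepts, for genes whose allelic reads reached 10 in each sample. All tests were two-sided with Benjamini-Hochberg adjustment over all genes tested. With 2 samples against 2, an exact test of a single value cannot go below p = 0.333. Replicate numbers were checked for pairing: deviations from the time means correlated at r = 0.142 to 0.281 in 10 of 10 pairs of times. All were over 0.1, the limit for taking the numbers as pairs. The main fit does not use this pairing, so its intervals and p-values ignore it. Blocked values are given where they change a call or clearly move a count. Alternatives used DESeq2 1.42.0, limma 3.58.1, other scaling and filters, and samples left out in turn. The fits were tested on simulated data.

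Besides the 8 members, genes were named where a pathway or marker list gene was called against 0 h, plus the FGF receptors, the 3 ligands highest per length and the 5 genes most correlated with Fgfr2. The members and lists were chosen with earlier results of these data known. The flanking genes of Fgfr2 were added after its values were seen. Spry3, also on the list of inhibitors, was not analysed here.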

Additional observations from a re-analysis of the deposited data

How the results depend on the processing

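Among 1175 values of single members under alternatives (log2 changes and allelic ratios), none reversed a call, 1122 stayed on the same side of the threshold or within their error, 44 moved by more, and 63 values that were never called changed sign. The count of members called in total counts and in allelic change against 0 h was 0 under every alternative run, with Fgfr2 left out of the totals at 12 h and 24 h. The Fgfr2 difference between 24 h and 12 h ran from -1.32 without 24 h replicate 2 to -0.85 without 24 h replicate 1. The 5 members called in the mean B6 to Cast ratio became 3 of the 4 left when 50 allelic reads were required, and 4 or 5 without single replicates. Dusp6 (-0.52) was no longer called with the replicate block (-0.51), in a ratio against 1 (-0.42), or without either 0 h replicate, 4 h replicate 1, 8 h replicate 2, 12 h replicate 1 or 24 h replicate 2 (-0.51 to -0.38). In a ratio against 1 Fgfr1 was called at 0.12. Of all genes tested, those called at 4, 8, 12 and 24 h against 0 h were 2, 28, 138 and 269, and with the replicate block 5, 108, 718 and 773. Between 24 h and 12 h the count was 1, with 215 under the block, 22 by DESeq2 and 19 without the filter. The 1 gene was Fgfr2 itself, from which nothing is read because Fgfr2 was chosen on this comparison. DESeq2 gave 54 at 8 h, and without the filter there were 53 at 8 h and 266 at 12 h. Without single replicates the lowest totals were 1, 5, 53 and 131 at the 4 times in turn, and 24 in the allelic ratio after 4 h. Counts under 50 a sample limit Dusp4 and Etv4, and 10 to 44 allelic reads a sample limit the ratios of Spry4, Dusp6 and Dusp4.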
